A study of Mus musculus with 19 samples.

Results

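The 8 genes described here, Lmo1, Lmo2, Lmo4, Lyl1, Tal1, Ldb1, Hhex and Mef2c, are transcription factors and cofactors known from T cell leukemia and from blood stem and progenitor cells. They were taken by name from the gene count table of the series, which lists 23458 genes, and 8 of 8 were among the 15508 genes that passed the filter on low counts. LMO proteins consist of LIM domains, do not bind DNA themselves and are held in complexes by LDB1, together with basic helix-loop-helix factors such as TAL1 and LYL1 and with GATA factors. Normal T cell precursors express LMO2, LYL1, TAL1, HHEX and MEF2C at their earliest stages and shut them down as they commit to the T lineage, whereas forced or persistent expression of LMO1, LMO2, TAL1 or LYL1 is a classic cause of T cell acute leukemia. The same factors act in red cell, megakaryocyte and stem cell transcription, so their mRNA is also a normal feature of those cells.

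The study measured polyadenylated RNA in 17 C57BL/6 mouse libraries of FLT3-ITD leukemia, made with a retrovirus or by editing the mouse gene, and its controls: 10 from leukemias, 4 from thymocytes carrying GFP alone and 3 from pre-leukemic marrow. FLT3-ITD is an internal tandem duplication that makes the FLT3 receptor tyrosine kinase active without its ligand, and DNMT3A is a de novo DNA methyltransferase. In the retroviral model, marrow of Mx1-cre+ donors, with Dnmt3a +/+ or f/f (f is a floxed allele), received an MSCV vector carrying GFP alone or FLT3-ITD with GFP and was transplanted into irradiated recipients. Donor-derived CD4+CD8+ cells were then sorted, the double-positive stage of thymocyte development.

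The retroviral groups are WT-GFP (Dnmt3a +/+, GFP alone, n = 2), KO-GFP (Dnmt3a f/f, GFP alone, n = 2), WT-ITD (Dnmt3a +/+, FLT3-ITD, n = 3) and KO-ITD (Dnmt3a f/f, FLT3-ITD, n = 4). All 4 carry Mx1-cre and a GFP virus. The GFP cells came from thymus, WT-ITD replicates 1 and 3 and KO-ITD replicates 3 and 4 from thymus, and WT-ITD replicate 2 and KO-ITD replicates 1 and 2 from bone marrow. Donor marrow was enriched for Sca-1 in all 4 KO-ITD libraries and for ckit in both KO-GFP libraries, while the 3 WT-ITD libraries used Sca-1, ckit and whole marrow in turn, so that enrichment and group cannot be told apart. The knock-in groups are unsorted bone marrow with 1 mutant allele of the mouse gene (Flt3 +/ITD): pre-leukemic marrow, ER-cre- with Dnmt3a f/f (KI-pre, n = 3); leukemia, ER-cre+ with Dnmt3a f/+ (KI-het, n = 2); and leukemia, ER-cre+ with Dnmt3a f/f (KI-KO, n = 1). KI-pre carries the floxed alleles without Cre and is treated as Dnmt3a intact. Leukemia and Cre therefore change together in that model and cannot be told apart. No age is given in these sources. The replicates are called biological but are not tied to animals, so that a p-value reflects only the spread among these libraries.

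Libraries held 4933890 to 25331908 counts. Levels are CPM, counts per 1000000 counts of the scaled library. Dnmt3a itself, counted over the whole gene and so also over exons that Cre leaves in place, stood at 257 and 250.1 CPM in WT-GFP, 207 and 144 in KO-GFP, 180 to 238 in WT-ITD, 53.0 to 127 in KO-ITD, 130 to 154 in KI-pre and 36.5 to 55.0 in the 3 knock-in leukemias. Summed over 11 double-positive thymocyte markers, levels were 12890 to 14710 CPM in the GFP libraries, 6370 to 10540 in WT-ITD, 2133 to 7987 in KO-ITD and 28.8 to 309 in knock-in marrow. The sorted leukemias also held RNA of other lineages. The 15 erythroid markers summed to 24.9 to 160 CPM in the GFP libraries, to 792, 76.4 and 112 in WT-ITD 1 to 3 and to 519, 1467, 1541 and 1311 in KO-ITD 1 to 4, while the 11 stroma and endothelium markers summed to 8.10 to 9.64 in the GFP libraries, 3.62 to 101.5 in WT-ITD and 114 to 2250 in KO-ITD. In bulk RNA, fewer cells of a type and less RNA per cell cannot be told apart. The part of these cells in the results below was not tested, and their levels are given where they move with a gene.

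Promoter windows are shown for 3 genes on which the leukemia results turn, Lmo4, which fell, and Lyl1 and Tal1, which rose. Each runs from 250 bases before to 50 after the transcription start, 5′ to 3′, from RefSeq on GRCm38.p6. Capitals mark GATA words (AGATAA and also AGATAG, with TGATAA and also TGATAG, on either strand) and the E-box CAGNTG on either strand, the kinds of site that GATA and basic helix-loop-helix factors bind. No marked words overlapped.
Lmo4, chr3:144205206-144205505, minus strand: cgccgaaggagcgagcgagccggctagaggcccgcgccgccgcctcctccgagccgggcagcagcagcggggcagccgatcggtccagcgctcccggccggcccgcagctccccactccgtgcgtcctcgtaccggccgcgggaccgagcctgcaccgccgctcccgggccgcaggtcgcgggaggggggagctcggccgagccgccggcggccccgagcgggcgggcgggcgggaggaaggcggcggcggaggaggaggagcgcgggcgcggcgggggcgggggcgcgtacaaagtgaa
Lyl1, chr8:84701207-84701506, plus strand: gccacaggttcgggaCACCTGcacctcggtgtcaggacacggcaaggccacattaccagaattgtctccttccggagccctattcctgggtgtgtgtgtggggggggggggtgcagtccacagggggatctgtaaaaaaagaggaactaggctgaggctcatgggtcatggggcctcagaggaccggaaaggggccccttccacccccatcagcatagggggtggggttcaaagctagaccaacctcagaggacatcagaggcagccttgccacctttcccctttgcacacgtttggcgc
Tal1, chr4:115056176-115056475, plus strand: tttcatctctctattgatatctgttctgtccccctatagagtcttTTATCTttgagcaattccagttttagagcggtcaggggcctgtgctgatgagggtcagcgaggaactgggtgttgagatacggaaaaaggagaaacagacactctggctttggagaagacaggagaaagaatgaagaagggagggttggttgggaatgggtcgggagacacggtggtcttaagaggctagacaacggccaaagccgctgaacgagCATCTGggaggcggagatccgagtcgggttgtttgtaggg

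Among all 32851 promoter windows of this length, 29.8% held a GATA word, 51.4% the E-box and 15.8% both. The Tal1 window shown had a GATA word starting 205 bases before its start and an E-box beginning 10 bases after it, and the other Tal1 window had neither word and 22 CpG. Lyl1 had an E-box 235 bases before its start and no GATA word. Lmo4 had neither word in any of its 3 windows. The window shown, the one of the 3 with the most CpG dinucleotides, held 52, against a median of 7 over all windows. This put it above 99.4% of them, and the other Lmo4 windows held 31 and 30. By comparison the windows shown for Lyl1 and Tal1 held 7 and 11 CpG. These matches describe letters only. Windows were matched for 7 of the 8 genes by symbol, and Lmo2 had none.

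Per length, the 8 genes kept a different order in thymocytes and in marrow. Levels between genes are given as mean CPM per kb of exon. In WT-GFP thymocytes, Ldb1, the adaptor, led with 156 CPM per kb, followed by Lmo4 with 34.9. The other 6 genes were at 1.70 (Lyl1), 1.13 (Lmo2), 0.764 (Mef2c), 0.761 (Hhex), 0.0627 (Tal1) and 0.0376 CPM per kb (Lmo1). In KI-pre marrow, Lmo2 led with 222 CPM per kb, and Hhex (70.8), Lyl1 (69.9), Ldb1 (63.0), Tal1 (42.8), Mef2c (38.4), Lmo4 (31.0) and Lmo1 (6.18) came after it. Ldb1 and Lmo4, the pair that led in thymocytes, were the 2 genes with no higher level in KI-pre than in WT-GFP. Tissue, sort and transplantation differ between these models, so no test was made between them.

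**Figure D1:**
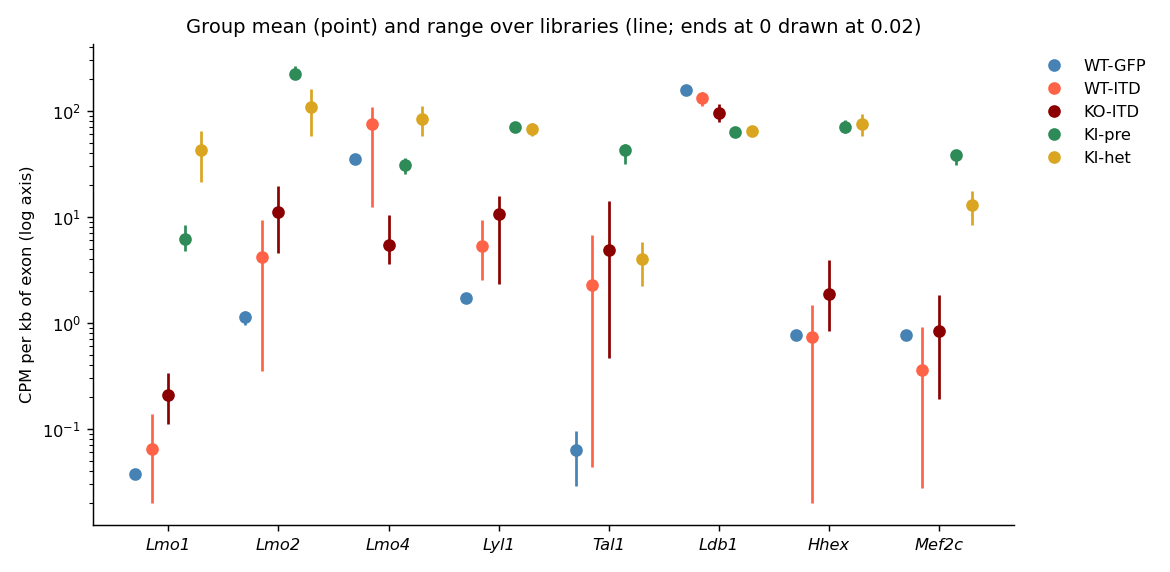
Mean CPM per kb of exon (points, log axis) and range over libraries (lines) for the 8 genes in 5 groups. Ldb1 and Lmo4 lead in WT-GFP, and Lmo2 leads in KI-pre at 222 CPM per kb.

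Lmo4 showed the largest difference of the 8 genes between Dnmt3a-deleted and Dnmt3a-intact retroviral leukemias, and it was lower in the former. LMO4 is the widely expressed LIM-only protein and competes with other LIM proteins for LDB1. Its gene lies on mm9 chromosome 3 from 143851494 to 143868219 on the minus strand. Lmo4 stood at 70.2 and 72.7 CPM in WT-GFP, 93.2 and 69.8 in KO-GFP, 220.4, 215 and 25.5 in WT-ITD, and 7.38, 8.68, 7.58 and 21.1 in KO-ITD. Every KO-ITD library was below every other library of the 17, although KO-ITD 4 came close to WT-ITD 3, the WT-ITD library that lay below the thymocytes. In knock-in marrow Lmo4 was at 73.1, 51.5 and 66.0 CPM in KI-pre, 119 and 227 in KI-het and 186 in KI-KO.

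Lmo4 fell in KO-ITD against WT-ITD by 3.78 on the log2 scale (SE 0.61, 13.8-fold lower; adjusted p = 0.0158 with edgeR's quasi-likelihood test and Benjamini-Hochberg adjustment over all genes tested). It was the single gene of the 8 that passed there, in a comparison that called 0.49% of all genes. An unadjusted p below 0.05 was found for 2 of the 8 and for 3144 of all 15508 genes tested. It also fell in KO-ITD against KO-GFP, by 2.87 (SE 0.63, 7.30-fold lower, adjusted p = 0.0104), where 19.6% of all genes were called. The WT-ITD and WT-GFP levels overlapped, and the difference of 1.11 (SE 0.70, adjusted p = 0.438) did not pass. These comparisons share groups and are not independent of each other.

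The difference between the FLT3-ITD effects with and without Dnmt3a was -3.97 for Lmo4 (SE 0.97). Its unadjusted p of 0.00125 gave an adjusted p of 0.484 in edgeR's test, which called 0% of all genes for this interaction, and 0.0163 in DESeq2. It was the 1 gene of the 8 with an unadjusted p below 0.05 in edgeR, where 838 of all 15508 genes tested had one. It was also the 1 that DESeq2 called, and limma voom called none. Without WT-ITD 3 the adjusted p was 0.0144, and without any 1 of the other 10 retroviral libraries it was 0.232 to 1.

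The call of Lmo4 against WT-ITD depended on which libraries were included. In edgeR's fit it was lost without WT-ITD 1 (adjusted p = 0.0723), WT-ITD 2 (0.0941) or KO-ITD 1 (0.0516), and passed without WT-ITD 3 (0.00035), KO-ITD 2 (0.0263), KO-ITD 3 (0.0365) or KO-ITD 4 (0.0118). With thymus libraries alone the log2 difference was -3.05 (adjusted p = 0.134) and with the first submission alone, which holds KO-ITD 1 and 2, it was -4.24 (0.0596). KO-ITD 1 and 2 are the marrow libraries and KO-ITD 3 and 4 the thymus libraries of the later records, so tissue and submission cannot be told apart within KO-ITD. Submission was inferred from the sample record numbers, and no label names it as a batch. By this split all GFP and WT-ITD libraries are in the first submission and all knock-in libraries in the second. In limma voom the difference was -3.45 (0.0964), and with only the 2 groups fitted -3.73 (0.26). Double-positive markers, which summed to 6370, 8189 and 10540 CPM in WT-ITD 1 to 3, summed to 5781, 7987, 2133 and 3414 in KO-ITD 1 to 4. Their part in the Lmo4 values was not tested.

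**Figure D2:**
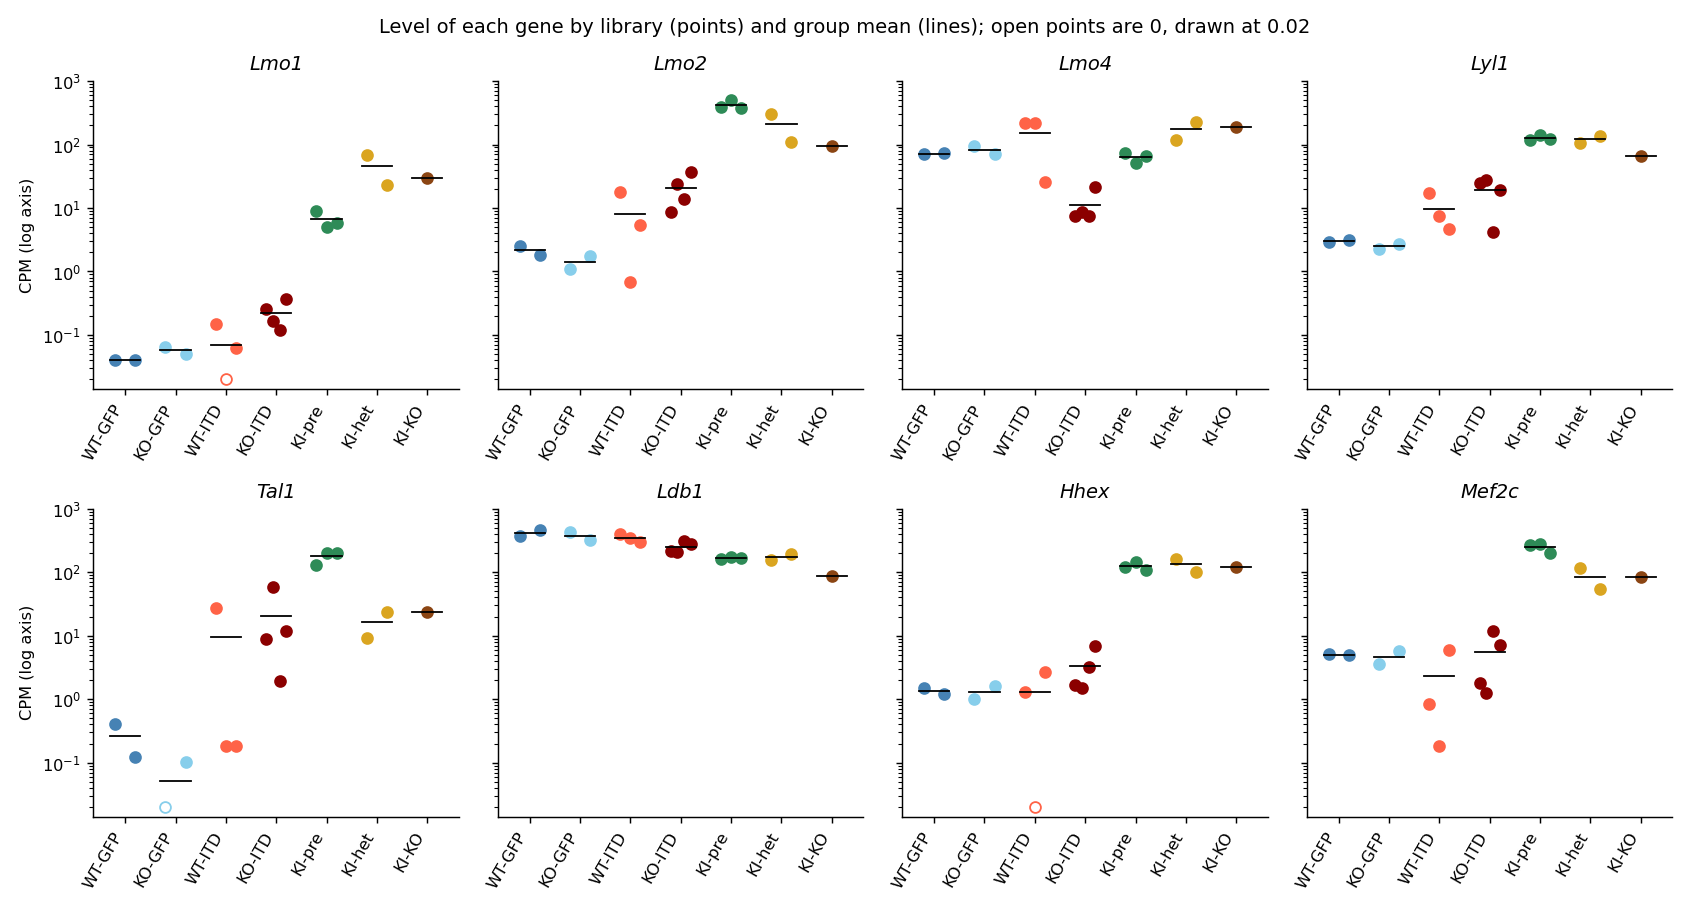
CPM of the 8 genes (log axis) in each library (points) with group means (lines); open points are libraries with no counts. The 4 KO-ITD libraries hold the lowest Lmo4 levels (7.38 to 21.1 CPM), and the knock-in groups hold the highest levels of Lmo2, Lyl1, Hhex and Mef2c.

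Lmo2, Lyl1 and Tal1 rose together in Dnmt3a-deleted retroviral leukemias against Dnmt3a-deleted thymocytes. With Lmo4 they made 4 of 8 genes called there, 3 higher and 1 lower, where 19.6% of all genes were called, 9.8% of all genes as higher and 9.85% as lower. The median log2 difference of the 8 genes was 1.55, against 0.19 over all genes tested; without Lmo1 and Tal1, whose KO-GFP libraries held 2 counts each in sum, it was 0.76.

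LMO2 is the LIM-only protein required for blood stem cells and red cells, and its human gene is activated in T cell leukemia. Lmo2 lies on mm9 chromosome 2 from 103798152 to 103822035 on the plus strand. Lmo2 stood at 2.48 and 1.82 CPM in WT-GFP, 1.09 and 1.77 in KO-GFP, 17.9, 0.674 and 5.40 in WT-ITD, and 8.65, 24.1, 13.7 and 37.1 in KO-ITD. All 4 KO-ITD libraries were above all thymocyte libraries, while WT-ITD 2 was below them. The rise in KO-ITD against KO-GFP was 3.85 (SE 1.04, adjusted p = 0.0235 in edgeR's test), which did not pass in limma voom (0.0722). In WT-ITD against WT-GFP the difference was 1.90 (SE 0.95, adjusted p = 0.32), and in KO-ITD against WT-ITD it was 1.38 (SE 0.75, adjusted p = 0.313) with overlapping groups.

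LYL1 is the basic helix-loop-helix paralog of TAL1, and its human gene was found at a translocation of T cell leukemia. Lyl1 lies on mm9 chromosome 8 from 87225356 to 87228615 on the plus strand. Lyl1 stood at 2.96 and 3.16 CPM in WT-GFP, 2.30 and 2.74 in KO-GFP, 16.9, 7.35 and 4.60 in WT-ITD, and 24.7, 28.0, 4.21 and 19.4 in KO-ITD. Every leukemia was above every thymocyte library, in both Dnmt3a genotypes. It rose by 2.92 in KO-ITD against KO-GFP (SE 0.68, adjusted p = 0.0128 in edgeR's test). In WT-ITD against WT-GFP the groups did not overlap, but the difference of 1.65 (SE 0.65, unadjusted p = 0.0241) had an adjusted p of 0.206. KO-ITD and WT-ITD overlapped, with a difference of 0.99 (SE 0.52, adjusted p = 0.298).

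TAL1, also called SCL, drives blood specification and the red cell and megakaryocyte programs, and its misexpression is among the most common lesions of human T cell leukemia. Tal1 lies on mm9 chromosome 4 from 114732132 to 114744360 on the plus strand. Tal1 stood at 0.400 and 0.122 CPM in WT-GFP, 0 and 0.101 in KO-GFP, 27.8, 0.184 and 0.184 in WT-ITD, and 8.78, 58.1, 1.92 and 11.7 in KO-ITD. It was above the thymocyte range in all 4 KO-ITD libraries and in 1 of 3 WT-ITD libraries, and it differed between KO-ITD libraries by 30.2 times. The 4 KO-ITD libraries held 1238 counts and the 2 KO-GFP libraries 2, a depth-scaled ratio of 514 (95% exact counting interval 142 to 4250, which covers counting error only). The fitted rise was 8.32 (SE 2.61, adjusted p = 0.0413 in edgeR's test), a value that depends on the prior count. In WT-ITD against WT-GFP the fitted difference of 5.13 (SE 2.09, adjusted p = 0.221) came from WT-ITD 1 and was -0.56 without it. In KO-ITD against WT-ITD it was 1.11 (SE 1.32, adjusted p = 0.661), -0.34 without KO-ITD 2 and 6.73 (adjusted p = 0.118) without WT-ITD 1.

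In Dnmt3a-intact leukemias against WT-GFP, 0 of 8 genes were called by edgeR, where 2.24% of all genes were. Lyl1 and Tal1 had an unadjusted p below 0.05 in edgeR, as had 2749 of all 15508 genes tested. DESeq2 called Tal1 (adjusted p = 0.0328) and limma voom none. The difference between the 2 FLT3-ITD effects was not called for Lmo2, Lyl1 or Tal1, with adjusted p of 0.819, 0.82 and 0.869 in edgeR's test.

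The calls against KO-GFP rested on that pair of libraries. Without KO-GFP 1, 0 of 8 genes were called and the calls over all genes dropped from 3047 to 147. Without KO-GFP 2, Lmo4 alone was called. Tal1 missed the threshold without KO-ITD 1 (adjusted p = 0.0529), without KO-ITD 2 (0.0528) and with the replicate number as a block (0.0533), and without KO-ITD 3 Ldb1 was called as well. With thymus libraries alone the called gene was Lmo2, and with only the 2 groups fitted Lmo4. With the first submission alone Lmo2 (adjusted p = 0.0704) and Tal1 (0.0582) did not pass.

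**Figure D3:**
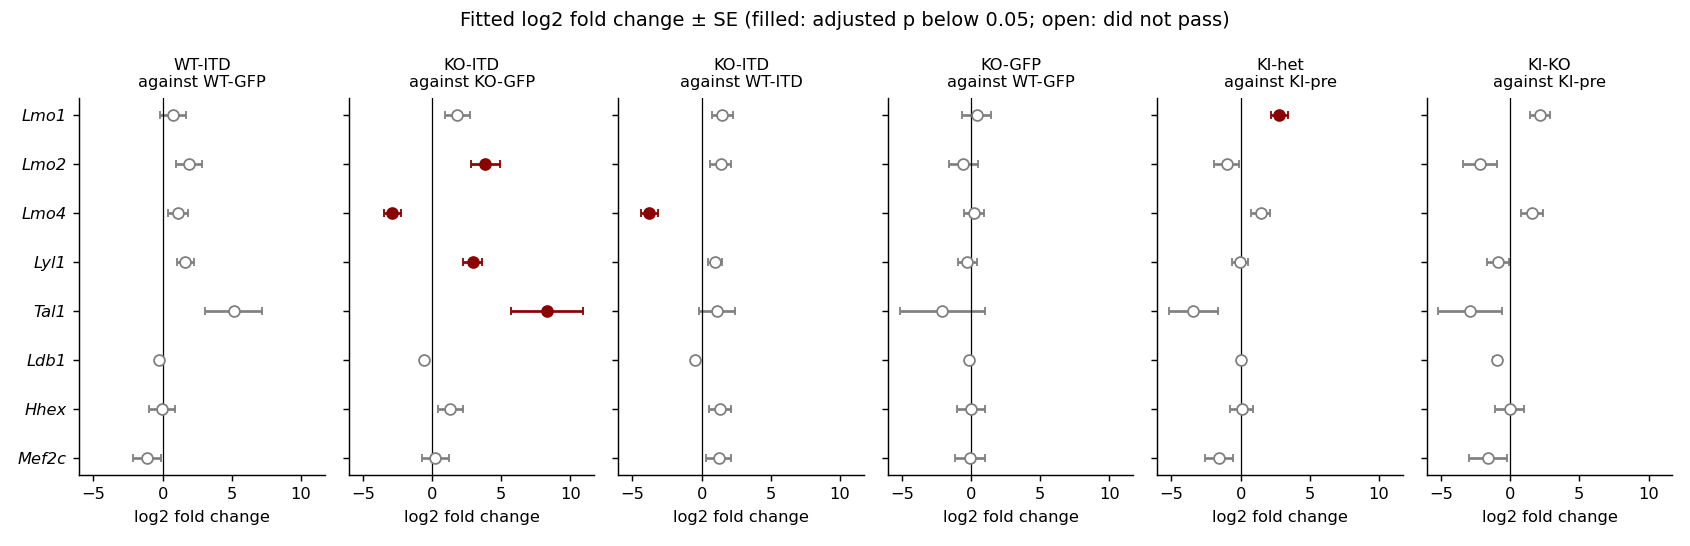
Fitted log2 fold change (points) with SE (bars) of each gene in 6 comparisons, filled where the adjusted p was below 0.05. Lmo4 is filled and negative in both KO-ITD comparisons, Lmo2, Lyl1 and Tal1 are filled and positive in KO-ITD against KO-GFP, and Lmo1 is filled in KI-het against KI-pre.

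The levels of red cell genes such as Rhag varied with Tal1 in the sorted leukemias. Over the 7 retroviral leukemias, the genes whose log2 CPM was most like that of Tal1, among 9852 candidates, were Rhag (Pearson r = 0.994), a red cell membrane protein, Cldn13 (0.985) and Epb4.2 (0.984), the red cell membrane protein 4.2. Rhag was at 27.9, 0.184 and 0.184 CPM in WT-ITD and 7.13, 55.4, 3.37 and 12.5 in KO-ITD, close to Tal1 in each library, and was at 0 in all 4 GFP libraries. Klf1, the red cell transcription factor, stood at 14.7, 1.04 and 0.123 in WT-ITD and 3.06, 26.1, 1.68 and 3.03 in KO-ITD. The genes most like Lmo2 were Csda (0.991), Blvrb (0.988) and Hagh (0.988). Lmo2 was highest in KO-ITD 4, at 37.1 CPM, where Rhag was at 12.5 and Klf1 at 3.03. In KO-ITD 4 the 8 megakaryocyte markers summed to 126.8 CPM, against 3.06 to 13.4 in the other sorted leukemias. Its 13 granulocyte and monocyte markers summed to 1581 CPM, also the highest there. The 11 stroma and endothelium markers summed to 2250 CPM in KO-ITD 4, against 3.62 to 538 in the other sorted leukemias. The likeness values are descriptions over 7 libraries that share tissue and depth differences. The part of red cells, megakaryocytes, granulocytes, monocytes, stroma and endothelium in the Tal1 and Lmo2 values was not tested. Of the 15 erythroid markers, 7 rose and none fell in KO-ITD against KO-GFP, where 9.8% of all genes rose.

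The genes most like Lyl1 over the 7 leukemias were Exoc3l4 (r = 0.954), Ubald2 (0.952) and Nudt19 (0.949), and its own r with Tal1 was 0.843. The part of red cells in the Lyl1 values was not tested. With WT-ITD 1 and KO-ITD 2, the libraries with the most Rhag, Klf1 and Slc4a1, left out together, the rises of Lmo2 (3.76, adjusted p = 0.0149), Lyl1 (2.64, 0.0102) and Tal1 (6.84, 0.00277) against KO-GFP passed edgeR's test, and Tal1 passed against WT-ITD (5.32, 0.0363) in place of Lmo4 (-3.24, 0.063). That fit kept KO-ITD 3 and 4, whose summed erythroid levels were 1541 and 1311 CPM. The libraries it left out also held the highest Tal1 of their groups, 27.8 CPM in WT-ITD 1 and 58.1 in KO-ITD 2. Only 0.184 and 0.184 CPM then remained in WT-ITD, so the Tal1 pass against WT-ITD followed from the choice and decides nothing. Rhag, 1 of the genes used to pick these libraries, had r = 0.994 with Tal1, so the choice was close to a choice on Tal1 itself. The Tal1 pass against KO-GFP in this fit therefore decides nothing either. With KO-ITD 3 and 4 kept, the passes of Lmo2 and Lyl1 are no test of red cell content. With KO-ITD 2 and KO-ITD 3, the pair with the highest sums, left out instead, Lmo2 (3.99, adjusted p = 0.035 in edgeR's test) and Lyl1 (3.13, 0.00411) passed against KO-GFP, but Tal1 (7.33, 0.0531) did not, nor did Lmo4 against WT-ITD (-3.43, 0.0552). Both choices of libraries were made after seeing the data.

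**Figure D4:**
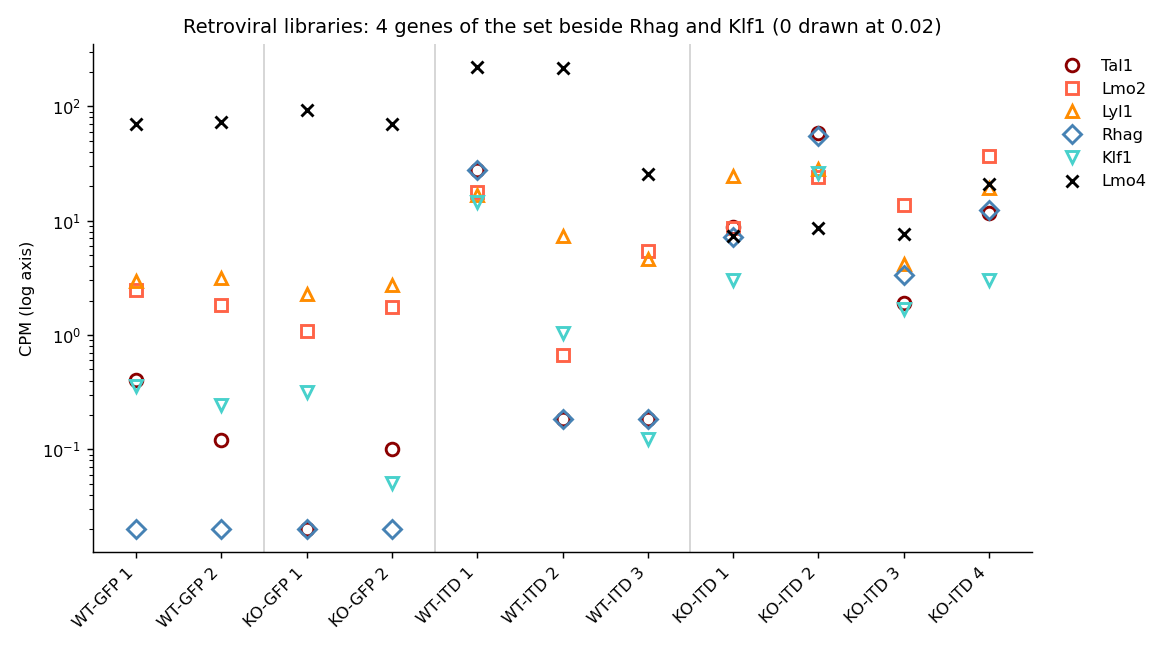
CPM (log axis) of Tal1, Lmo2, Lyl1 and Lmo4 beside the red cell genes Rhag and Klf1 in the 11 retroviral libraries. Tal1 and Rhag nearly coincide in the leukemias, from 0.184 CPM in WT-ITD 2 to 58.1 and 55.4 in KO-ITD 2, whereas Lmo4 lies between 7.38 and 21.1 in KO-ITD.

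Ldb1, the adaptor that dimerizes and bridges LMO complexes, was abundant in every library. It lies on mm9 chromosome 19 from 46107091 to 46119701 on the minus strand. Ldb1 stood at 377 and 457 CPM in WT-GFP, 430.5 and 319 in KO-GFP, 405, 348 and 295 in WT-ITD, and 213, 209.9, 311 and 279 in KO-ITD. KO-ITD lay below KO-GFP without overlap, but the difference of -0.57 (SE 0.20, adjusted p = 0.0658 in edgeR's test) did not pass, nor did that against WT-ITD (-0.47, SE 0.18, adjusted p = 0.195). In knock-in marrow it was 162, 175 and 167 CPM in KI-pre, 156 and 191 in KI-het and 88.3 in KI-KO, the lowest value of the 17 libraries.

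Hhex and Mef2c, a homeobox factor of blood progenitors and a MADS-box factor of lymphoid and myeloid progenitors, stayed low in the sorted cells. Hhex (mm9 chromosome 19, 37509331 to 37515221, plus strand) ranged from 1.02 to 1.62 CPM in the GFP libraries, stood at 1.28, 0 and 2.64 in WT-ITD and at 1.66, 1.48, 3.25 and 6.92 in KO-ITD. Mef2c (mm9 chromosome 13, 83643033 to 83806684, plus strand) ranged from 3.58 to 5.83 CPM in the GFP libraries, stood at 0.837, 0.184 and 6.02 in WT-ITD and at 1.78, 1.26, 12.03 and 7.16 in KO-ITD. Neither gene passed in any of the retroviral comparisons. WT-ITD 3 was the highest WT-ITD library for both, and KO-ITD 3 and 4, the thymus libraries of that group, were above KO-ITD 1 and 2 for both.

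The genes most like Mef2c over the 7 leukemias were Cd22 (r = 0.994), a B cell receptor that is among the B cell markers, Trip10 (0.993) and Hdac9 (0.982). The 9 B cell markers summed to 14.7, 8.89 and 94.0 CPM in WT-ITD 1 to 3 and to 60.3, 37.8, 197 and 111 in KO-ITD 1 to 4, the same order as Mef2c within each group. The part of B cells in the Mef2c values was not tested. Hhex was most like Plcg2 (0.982), Samhd1 (0.978) and Golm1 (0.977), and its r with Mef2c was 0.882. Ldb1 was most like Gabbr1 (0.976), Tmem63b (0.974) and Tuba1a (0.973), and Lmo4 most like Slc26a6 (0.984), Entpd6 (0.983) and Glyctk (0.982).

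LMO1, the founding LIM-only protein of T cell leukemia translocations, was at the limit of detection in the sorted cells. Lmo1 (mm9 chromosome 7, 116282086 to 116313822, minus strand) had 0 to 3 counts in each of the 11 retroviral libraries, 17 counts in all. No fold is given there. Its most similar genes over the 7 leukemias, Slc40a1, Pilra and Clec4a2, rest on these few counts.

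Deletion of Dnmt3a in thymocytes carrying GFP alone gave no call among the 8 genes. edgeR, DESeq2 and limma voom each called 0 of them, and edgeR called 0% of all genes. In edgeR 0 of the 8 had an unadjusted p below 0.05, beside 74 of all 15508 genes tested. The largest of the well-counted genes differed little: Lmo4 averaged 81.5 ± 16.6 CPM (SD, n = 2) in KO-GFP and 71.5 ± 1.79 (n = 2) in WT-GFP, and Ldb1 averaged 375 ± 78.7 and 417 ± 56.6.

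In knock-in marrow Lmo1 rose and was the 1 gene of the set called in KI-het against KI-pre, where 5% of all genes were called. Lmo1 stood at 8.89, 5.09 and 5.87 CPM in KI-pre, 69.3 and 22.8 in KI-het and 29.9 in KI-KO. All 3 leukemias were above all 3 pre-leukemic libraries. The rise in KI-het was 2.80 (SE 0.62, 6.96-fold, adjusted p = 0.0272 in edgeR's test), and in KI-KO, a single library assumed to vary like the other groups, the difference was 2.18 (SE 0.72, adjusted p = 0.114). The KI-het call was lost without any 1 of the KI-pre libraries 1, 2 or 3 (adjusted p = 0.0848, 0.112 and 0.0981), without KI-het 1 (0.159), where the difference was 1.79, and with only the 2 groups fitted (0.0611).

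The other LIM-only genes did not pass in the knock-in model. Lmo4 was 1.45 higher on the log2 scale in KI-het (SE 0.67, adjusted p = 0.198 in edgeR's test) and 1.55 higher in KI-KO (SE 0.79, adjusted p = 0.291), with all 3 leukemias above all 3 pre-leukemic libraries but no call. Lmo2 stood at 387, 504 and 377 CPM in KI-pre, 306 and 110.5 in KI-het and 95.2 in KI-KO. Each leukemia was below each pre-leukemic library, and the KI-het difference of -1.02 (SE 0.87, adjusted p = 0.507) did not pass.

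Tal1 stood at 132, 202.5 and 199 CPM in KI-pre, 9.30 and 24.0 in KI-het and 24.0 in KI-KO. The 3 leukemias were below the 3 pre-leukemic libraries without overlap. Neither the KI-het difference of -3.42 (SE 1.77, adjusted p = 0.253 in edgeR's test) nor the KI-KO difference of -2.89 (SE 2.32, adjusted p = 0.506) passed; limma voom called the former (adjusted p = 0.0401). Mef2c stood at 273, 280.0 and 203 CPM in KI-pre, 116 and 55.0 in KI-het and 83.4 in KI-KO, again without overlap, and the KI-het difference was -1.56 (SE 1.02, adjusted p = 0.371; 0.0418 in limma voom).

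Lyl1 and Hhex overlapped between pre-leukemic and KI-het marrow. Lyl1 stood at 118, 139 and 120.3 CPM in KI-pre, 104 and 137 in KI-het and 67.0 in KI-KO. Hhex stood at 121, 145 and 109.7 CPM in KI-pre, 164 and 102 in KI-het and 122 in KI-KO. For Hhex the 3 groups overlapped; for Lyl1 the KI-KO library was below the other 5. In KI-KO against KI-pre, 0 of 8 genes were called by edgeR, where 3.01% of all genes were. An unadjusted p below 0.05 was found for 3243 of all 15508 genes tested and for 2 of the 8, Lmo1 and Ldb1 (-0.93, SE 0.29, adjusted p = 0.102). DESeq2 called both, limma voom Lmo1 alone, and a fit of only these 2 groups, with 3676 calls over all genes in place of 467, called 7 of 8.

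Markers of the marrow changed beside these genes. The 13 granulocyte and monocyte markers summed to 4953, 4438 and 3189 CPM in KI-pre, 4046 and 19810 in KI-het and 16350 in KI-KO. Of the 15 erythroid markers in KI-het, 1 fell and 1 rose, where 5% of all genes were called. Gata1 fell by 5.08 (SE 1.30, adjusted p = 0.043 in edgeR's test) and Alas2 rose by 5.47 (SE 1.32, 0.0361). In KI-KO against KI-pre 3 erythroid markers rose and 0 fell, where 3.01% of all genes were called. The 7 tested megakaryocyte markers had 1 fall and no rise in KI-het. The part of cell makeup in the Lmo1, Lmo4 and Tal1 values was not tested.

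Ranked by group mean CPM, Lmo2, Lyl1, Tal1 and Mef2c were highest in KI-pre, Lmo1 and Hhex in KI-het, Lmo4 in KI-KO and Ldb1 in WT-GFP. For Hhex, Lyl1 and Lmo1 the ranges of the highest and the next group overlapped, and for Lmo4 each neighbour down to KI-pre overlapped, leaving a gap only between KI-pre and KO-ITD. For Lmo2 the gaps lay between KI-pre, KI-het, KI-KO and KO-ITD, and between WT-GFP and KO-GFP, while KO-ITD, WT-ITD and WT-GFP overlapped in turn. For Tal1 KI-pre stood apart, and the 5 groups from KI-KO down to WT-GFP overlapped in turn. For Ldb1 the means ran from WT-GFP through KO-GFP and WT-ITD to KO-ITD, and each of these groups overlapped the next.

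The other genes of the pathway were taken from fixed lists. Of 20 tested partners and relatives of the LMO and LDB1 complex, 5 rose and 3 fell in KO-ITD against KO-GFP, where 9.8% of all genes rose and 9.85% fell. Those with the largest changes were Gata2 (5.34, SE 1.77, adjusted p = 0.0498 in edgeR's test) and Gata1 (4.66, SE 1.26, 0.0237), DNA-binding partners of the complex, and Id1 (3.55, SE 0.85, 0.0146) and Id3 (-2.94, SE 0.77, 0.0209), inhibitors of E proteins. The median of the 20 was 0.41, against 0.19 over all genes. Ssbp2, an LDB1-stabilizing protein, fell in WT-ITD against WT-GFP (-1.24, SE 0.25, adjusted p = 0.0215) as the 1 call of 20, where 2.24% of all genes were called, and in KO-ITD against KO-GFP (-1.70, SE 0.23, 0.00101). In KI-het against KI-pre 1 of the 20 rose and 3 fell, with 5% of all genes called, and in KI-KO 1 rose and 1 fell, with 3.01%. Ssbp2 fell in both (-0.97 and -1.66) and Id2 rose in both (by 2.98 and 3.36).

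In KO-ITD against WT-ITD, Id1 was the 1 gene called of the 20, where 0.49% of all genes were called (3.73, SE 0.72, adjusted p = 0.0405 in edgeR's test). Lmo3 and Tal2, which failed the low-count filter, are not among the 20. Of 18 early progenitor genes, 3 rose (Gata2, Nfe2 and Runx2) and 1 fell (Sox4) in KO-ITD against KO-GFP, with a median of 2.64 over the 18. These 4 of 18 stand beside 19.6% of all genes called, and are near that share. In that list Cd93 alone rose against WT-ITD (4.77, SE 0.80, 0.0195). Of 9 tested T leukemia genes outside the set, Myc, Notch1 and Notch3 rose and Bcl11b and Myb fell in KO-ITD against KO-GFP, where 19.6% of all genes were called. Myc, the 1 call in WT-ITD against WT-GFP, rose by 1.71 there (SE 0.30, adjusted p = 0.0123) and by 2.03 in KO-ITD (SE 0.30, 0.00177). In KO-ITD against WT-ITD 0 of the 9 were called, and 2 had an unadjusted p below 0.05, as had 3144 of all 15508 genes tested.

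Transcript models were estimated by the authors for the 4 genes with more than 1. Lmo2 has 4 models with 3 start sites on mm9 chromosome 2, at 103798152, 103809714 and 103810444. The share of its estimated count on the model starting at 103798152 was 1.54% and 99.99% in the 2 WT-GFP libraries, 88.5% in WT-ITD 1 and 86.4% in KO-ITD 2, and at most 0.424% in the other 5 retroviral leukemias. In the knock-in libraries, where Lmo2 was abundant, the model starting at 103809714 took 61.7%, 70.0% and 42.3% in KI-pre, 88.3% and 34.2% in KI-het and 25.0% in KI-KO. The libraries of a group differed by as much as the groups. For Lmo4 the share of the upstream-start model ranged from 12.2% to 83.0% over the 4 GFP libraries, so its start use could not be compared between groups, and for Ldb1 the upstream-start model held 51.8% to 76.7% in the GFP libraries and 76.8% to 86.1% in knock-in marrow.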

How the data were processed

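Polyadenylated RNA was sequenced from 19 GEO samples, which make 17 libraries because the technical runs of each WT-GFP library share 1 deposited column. The authors deposited unscaled estimated counts per gene and per transcript model. TopHat2 2.0.10, Cufflinks 2.1.1 (no version for later records) and Cuffdiff 2.1.1 or 2.2.1 were used with mm9, per the submitters' processing notes. The step that wrote the counts and any use of strand: not given in the sources used here. From library to library, 98.12% to 98.54% of nonzero values were whole within 0.001, and all were rounded. No gene model of another name overlapped an exon of the 8 genes in the deposited models.

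Groups came from sample titles and genotypes. In R 4.3.3, edgeR 4.0.16 filtered low genes (filterByExpr, leaving 15508), scaled libraries by TMM (factors 0.943 to 1.08) and fitted a quasi-likelihood model to all 17 libraries with 1 mean for every group. Contrasts were tested two-sided with Benjamini-Hochberg adjustment over all genes tested and a threshold of 0.05. Because the spread was estimated jointly, the single KI-KO library was assumed to vary like the others. SEs came from the F statistic. CPM used scaled library sizes, and CPM per kb the union of exons. Likeness was Pearson's r of log2 CPM (prior count 2) over the 7 retroviral leukemias, among genes with a mean of at least 5 CPM and without predicted names. The text names all 8 genes, the 3 genes most like each and, per fixed list and comparison, up to 4 called genes with the largest change. The members and lists were chosen with earlier results of these data known. Spi1 was matched to the table's older symbol Sfpi1.

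Alternatives were DESeq2 1.42.0, limma voom (limma 3.58.1), other scaling, no filter, subsets of libraries, a replicate block and leaving out each library. The fit was tested on simulated counts. The labels do not say that a replicate number pairs libraries, so the numbers were not taken as pairs. Deviations of same-numbered libraries correlated at 0.16, 0.37 and 0.08 between WT-ITD and KO-ITD. Over all comparisons checked, the correlations ran from -0.22 to 0.37. The deposited FPKM values were not used.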

Additional observations from a re-analysis of the deposited data

Results flagged for a closer look

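KO-ITD 4 stood apart from the other KO-ITD libraries for Lmo4, at 21.1 CPM against 7.38 to 8.68 CPM. The gap to the nearest library was 0.905 of the group's range, above Dixon's 95% critical value of 0.829 for 4 samples. Lmo4 was the 1 flag among the 8 genes tested in KO-ITD, and chance flags about 1 in 20 such groups. KO-ITD 4 also had the highest summed level of stroma and endothelium markers, 2250 CPM against 114 to 538 CPM in the other KO-ITD libraries, and its part in the Lmo4 value was not tested. Without KO-ITD 4, Lmo4 differed by -4.28 on the log2 scale from WT-ITD and by -3.36 from KO-GFP.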

How the results depend on the processing

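The 46 log2 differences of named genes had 653 values under the alternatives, of which 502 kept their direction and their side of the threshold, 132 lost a call, 15 gained one and 4 changed sign; the cause was not tested unless stated. The 4 sign changes were all of Tal1: -0.56 in WT-ITD against WT-GFP with WT-ITD 1 and KO-ITD 2 left out together, and in KO-ITD against WT-ITD -0.99 with thymus libraries only, with a range of -0.56 to 6.18 and of -0.34 to 6.73 when each library was left out. Outside the 8 genes, Gata2 lost its call against KO-GFP in 9 of 16 alternatives, Id1 its call against WT-ITD in 8 of 17, and Gata1 and Ssbp2 theirs in KI-het in 7 of 11 each. For WT-ITD against WT-GFP, the number of the 8 genes called was 1 in DESeq2 and 0 otherwise. For KO-ITD against KO-GFP it was 1 with only the groups compared, 1 with thymus libraries only, and 0 to 5 leaving out each library. For KO-ITD against WT-ITD it was 0 in limma voom, 0 with only the groups compared, 0 in the first submission, 0 with thymus libraries only, 0 with KO-ITD 2 and 3 left out together, and 0 to 1 leaving out each library. For KI-het against KI-pre it was 3 in limma voom, 0 with only the groups compared and 0 to 1 leaving out each library. For KI-KO against KI-pre it was 2 in DESeq2, 1 in limma voom, 7 with only the groups compared and 0 leaving out each KI-pre library. For the interaction it was 1 in DESeq2 and 0 to 1 leaving out each library.

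With the replicate number as a block, the number of the 8 genes called was 3 in KO-ITD against KO-GFP, where Tal1 had an adjusted p of 0.0533, and was unchanged in the other comparisons. Crossed numbers in the GFP groups alone gave 356 calls over all genes and 0 of the 8, against 5 and 0 with the numbers as labelled. Over all genes, calls ranged from 23 to 1402 around 347 in WT-ITD against WT-GFP, 147 to 5015 around 3047 in KO-ITD against KO-GFP, 0 to 1272 around 76 in KO-ITD against WT-ITD, 38 to 2353 around 775 in KI-het, 36 to 3676 around 467 in KI-KO and 0 to 80 around 0 in the interaction. The share of the Lmo2 model starting at 103809714 in KI-het 1, 88.3%, did not move when it was taken of the gene count. Depth limits Lmo1 in all sorted libraries and Tal1 and Hhex in thymocytes.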
